A study of Drosophila melanogaster with 46 samples.

Results

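The response to malnutrition of middle-aged control flies was taken as the difference between 4 arrays of control (C) females kept on malnutrition and 4 arrays of C females kept on optimal food, chosen by the line, food and age class in their titles, 8 of the 46 arrays of the series. Each array was hybridised with RNA of a pool of 5 whole virgin females of *Drosophila melanogaster*. C is a control line of an experiment in which another line, SR, was selected for resistance to starvation. As adults the flies received a medium whose yeast and sugar stood at 0.5 (malnutrition), 2 (optimal food) or 5 (overfeeding) relative to the standard medium. Middle age was the day at which 90% of a cohort was alive, and old age the day at which 10% was alive. Flies of both foods were therefore matched by survival and can differ in days of age. Beside the 8 arrays, the text uses 8 arrays of middle-aged SR flies on malnutrition and optimal food, 7 arrays of old C flies on these foods (3 on malnutrition and 4 on optimal food), and the 4 arrays each of overfed middle-aged C and SR flies. Larvae were raised on the standard medium. The selection experiment held 2 C lines and 4 SR lines, and 1 line of each was used here. The 4 replicates of a group are pools of that 1 line, so the p-values measure the spread between pools and not between lines.

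In a well-fed female fly the gut secretes proteases, lipases and sugar hydrolases, the fat body stores triglyceride and secretes yolk proteins and lipoproteins into the blood, and the ovary turns these stores into eggs. Insulin-like peptides and the target of rapamycin (TOR) kinase are known to couple food to these processes: when yeast is scarce, insulin signalling falls, the transcription factor FOXO becomes active, ribosome production slows and egg development is halted. Virgin females still make yolk, although fewer eggs are completed than after mating. Every array here reads a whole fly, so a lower value of a gene of one tissue may stand for fewer cells of a type or for less RNA per cell, and these cannot be told apart.

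The deposited values are log2 expression values made with RMA, one per probe set. The number of arrays limits their precision. Over all probe sets the correlation between arrays was 0.990 to 0.995 within the malnutrition group and 0.992 to 0.997 within the optimal food group. The median value per array was 5.15 to 5.26 on malnutrition and 5.10 to 5.11 on optimal food. In each group 1 array stood somewhat apart: malnutrition replicate 2 differed from the other arrays of its group by 0.214 in log2 on average, where the remaining arrays differed by 0.156 to 0.188, and optimal food replicate 1 by 0.199, where the remaining arrays differed by 0.136 to 0.140. The 28 measured genes of the male reproductive tract, which virgin females should lack, had a mean of 3.56 to 3.69 on malnutrition and 3.66 to 3.82 on optimal food, and 1 of them, Mst98Ca, a gene first described in the male germline, passed the test (fell by 0.31 ± 0.08; 2 fell without optimal food replicate 1 or 2).

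A difference was called when its adjusted p was under 0.05, from limma fitted to all 46 arrays with 1 mean per group, with Benjamini-Hochberg adjustment across the 18769 probe sets tested. A change given with ± is the log2 difference of malnutrition minus optimal food and its standard error. By this rule 2679 probe sets (14.3% of those tested) were called, 1714 higher on malnutrition (9.13%) and 965 lower (5.14%). For 18.5% of the probe sets the 4 malnutrition arrays lay wholly above or wholly below the 4 optimal food arrays. With 1 probe set for each of 11982 named genes, 2084 genes (17.4%) were called, 1281 higher (10.7%) and 803 lower (6.7%). The counts of called genes in each list below are to be read against these shares. Calls that were higher had a median difference of 0.79 and calls that were lower one of -0.43. A log2 difference of at least 1 was seen for 557 higher and 139 lower calls, and one of at least 2 for 34 higher and 42 lower calls. Without malnutrition replicate 2 the count of calls was 1781. The share of higher calls was 64%, and 42% with arrays centred on their median.

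The genes at both ends of the response had unlike roles. A protease of the gut, an odorant-binding protein and a pair of vitelline membrane genes were among the 12 named genes with the deepest falls, and a DNase induced by stress, the flight muscle actin, an immune peptide and Arc1, a gene related to retroviral capsids, were among the 12 with the highest rises. These 24 genes were chosen for their size of change and for groups that do not overlap, so their separation in the plot of array values is given as a description. The highest probe set of all changed by 5.16 and has no single gene name. Of the 12 highest probe sets 8 have none, and of the 12 lowest 0.

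**Figure D1:**
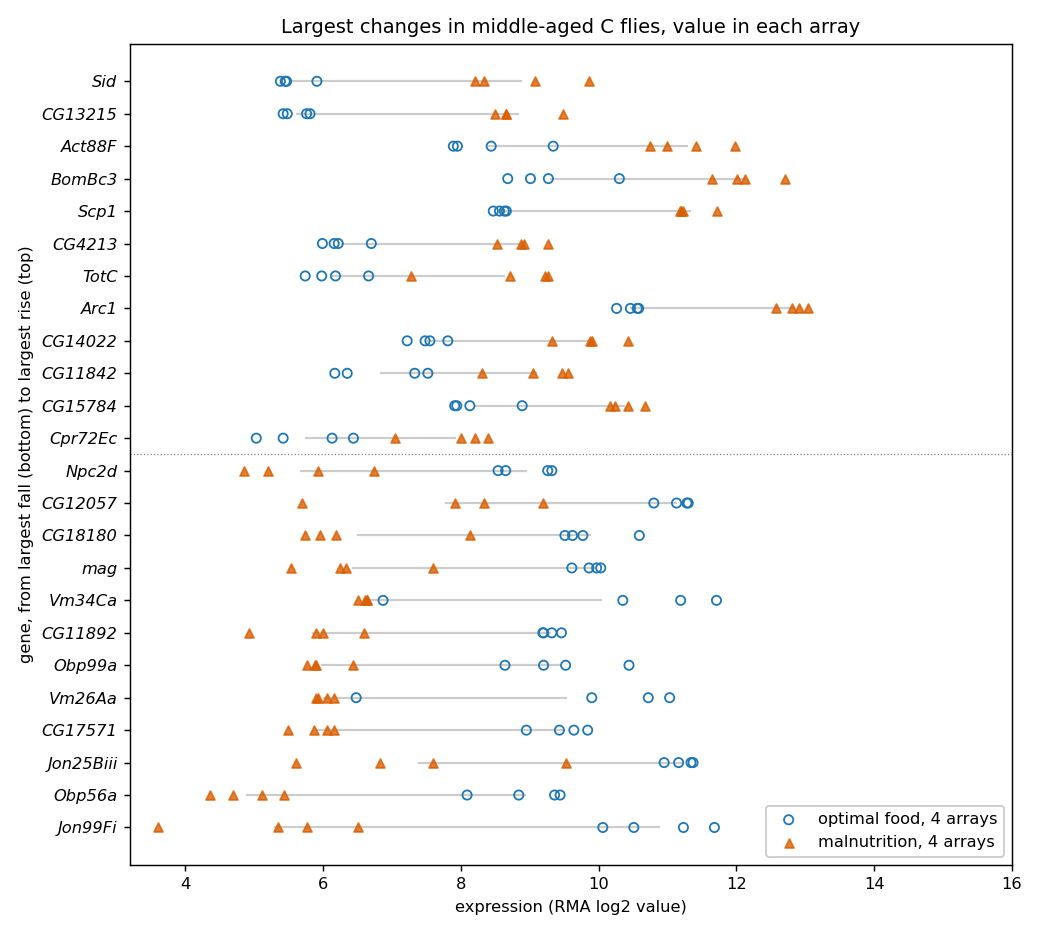
Expression (RMA log2 value, horizontal axis) of the 12 named genes with the deepest falls and the 12 with the highest rises in each of the 4 optimal food arrays (open circles) and 4 malnutrition arrays (triangles). Grey lines join the group means. Jon99Fi spans 10.06 to 11.68 on optimal food and 3.60 to 6.51 on malnutrition, and for Vm26Aa and Vm34Ca 1 optimal food array (6.48 and 6.87) lies close to the malnutrition arrays.

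Of 30 measured digestive serine proteases 11 fell on malnutrition, 2 rose (1 without malnutrition replicate 1) and 17 did not pass, with a median difference of -0.54 against -0.05 for all genes. Jon99Fi, a serine protease of the Jonah family that the gut secretes, read 10.51, 10.06, 11.23 and 11.68 in optimal food replicates 1 to 4 and 5.34, 6.51, 5.77 and 3.60 in malnutrition replicates 1 to 4. Every malnutrition array thus lay at least several log2 units below every optimal food array, and the gene fell by 5.56 ± 0.50, or 47.3-fold (adjusted p = 3.58e-10). Malnutrition replicate 4 lay within the means of the male reproductive tract genes on malnutrition (3.56 to 3.69). It was not shown to be above background, so the fall may be larger than this. Jon25Biii, of the same family, read 11.37, 11.16, 10.95 and 11.34 on optimal food and 7.59, 9.52, 5.61 and 6.83 on malnutrition. Its malnutrition arrays were far more scattered than its optimal food arrays and it fell by 3.82 ± 0.52 (adjusted p = 1.13e-06). Smaller falls were called for Jon25Bi (-2.52 ± 0.36), Jon25Bii (-2.45 ± 0.47), Jon65Aii (-2.34 ± 0.40) and Jon65Ai (-2.12 ± 0.45). Jon65Aiv, a further Jonah gene, was not called, with a difference of -0.55 ± 0.31 (adjusted p = 0.266) and values of 11.78 to 13.03 on optimal food against 11.34 to 12.12 on malnutrition. Jonah genes are close paralogs, and probes for one can bind RNA of another, so the share of each gene in these values is uncertain. The serine protease genes CG17571 and CG18180, which are outside the list of digestive proteases, fell by 3.57 ± 0.29 and 3.37 ± 0.54.

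The enzymes that digest fat and sugar moved less uniformly. The gene mag, which encodes a gut lipase that also cleaves cholesterol esters, read 9.61, 9.86, 10.03 and 9.97 on optimal food and 6.33, 7.60, 5.54 and 6.25 on malnutrition. The groups did not overlap and mag fell by 3.44 ± 0.34 (10.8-fold, adjusted p = 4.85e-09). CG17192, a gene of the lipase family, fell by 2.98 ± 0.45, and Npc2d, of a family of sterol-binding proteins, by 3.27 ± 0.42. Of 22 digestive lipases 3 fell, 0 rose and 19 did not pass (13.6% called against 17.4% of all genes, median difference -0.10). Among 23 maltases, amylases and other sugar hydrolases 2 fell, 1 rose and 20 did not pass (median difference -0.14). The number that fell was 1 without malnutrition replicate 4 or optimal food replicate 1 or 2, and the number that rose was 2 without malnutrition replicate 3. The maltase gene Mal-B1 fell by 1.65 ± 0.31, while Mal-B2 rose by 0.92 ± 0.19 (adjusted p = 0.000467), from 8.90 to 9.13 on optimal food to 9.27 to 10.46 on malnutrition. CG12057 and CG11892, whose products have no role given here, fell as well (-3.34 ± 0.59 and -3.44 ± 0.35). A further list of 13 gut genes had a median difference of -0.33, with 3 lower and 2 higher (1 higher without malnutrition replicate 2). One of those that rose was GATAe, a transcription factor of the gut, by 0.92 ± 0.24 (adjusted p = 0.00658). The mean of the gut list was 9.74 to 10.19 on optimal food and 8.84 to 9.72 on malnutrition, with malnutrition replicate 2 nearest to the optimal food arrays.

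Some odorant-binding proteins, small secreted carriers named for their role in smell but also made in other tissues, were among the deepest falls. Obp56a read 9.44, 8.84, 9.36 and 8.09 on optimal food and 5.43, 5.11, 4.36 and 4.69 on malnutrition. All malnutrition arrays lay below all optimal food arrays, and the fall was 4.03 ± 0.31, or 16.4-fold (adjusted p = 1.13e-11). Further falls were called for Obp99a (-3.46 ± 0.39), Obp56e (-2.05 ± 0.30) and Obp56d (-1.62 ± 0.26). These genes were not typical of their list. Of 213 chemosensory receptors and odorant-binding proteins 8 fell and 6 rose, a share of 6.57% against 17.4% of all genes, and the number lower was 4 without malnutrition replicate 2 and 5 without malnutrition replicate 4.

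Cuticle genes, which build the exoskeleton and linings of gut and trachea, changed in both directions. Of 106 measured members 18 rose and 5 fell (21.7% called against 17.4% of all genes), with a median difference of 0.03. Cpr72Ec read 5.03, 5.42, 6.13 and 6.44 on optimal food and 8.0, 8.39, 8.2 and 7.04 on malnutrition, a rise of 2.15 ± 0.28 (4.45-fold, adjusted p = 5.54e-07). The lowest malnutrition array, replicate 4, was still above the highest optimal food array. Cpr100A rose by 1.88 ± 0.34. Cpr49Ab and Cpr65Au, of the same protein family, fell by 1.93 ± 0.26 and 1.82 ± 0.29.

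Among genes of egg production falls were called for 3 of 6 genes of yolk and its uptake, 3 of 20 of chorion and vitelline membrane and 13 of 71 of germline and oogenesis. Over all genes 6.7% fell. Yp1, Yp2 and Yp3 encode the yolk proteins, which fat body and follicle cells secrete and the oocyte takes up. Yp3 read 12.52, 12.50, 12.83 and 13.02 on optimal food and 11.29, 9.88, 9.54 and 9.32 on malnutrition, with malnutrition replicate 1 the least reduced, and it fell by 2.7 ± 0.35 (6.52-fold, adjusted p = 4.36e-07). Yp2 fell by 2.38 ± 0.36 (adjusted p = 4.27e-06), from 12.15 to 12.73 on optimal food to 9.26 to 11.00 on malnutrition. Yp1 changed less, from 13.11 to 13.29 to between 12.13 and 12.76, a fall of 0.78 ± 0.24 (adjusted p = 0.0204). This call was lost without malnutrition replicate 3 (adjusted p = 0.0535), malnutrition replicate 4 (0.0763), optimal food replicate 1 (0.0506) and optimal food replicate 4 (0.0528). The gene fit, which encodes a female-enriched secreted protein of the fat body known to signal protein satiety, read 9.64, 9.25, 9.26 and 8.90 on optimal food and 7.56, 6.08, 5.94 and 5.17 on malnutrition. Its groups did not overlap and it fell by 3.07 ± 0.50 (8.41-fold, adjusted p = 1.59e-05). The other 3 genes of yolk and its uptake were not called, and without malnutrition replicate 1 or 3 a rise was called for 1 gene of the list.

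Eggshell genes are made by the follicle cells around each egg chamber. The vitelline membrane gene Vm26Aa read 6.48, 10.72, 9.90 and 11.03 on optimal food and 6.05, 5.93, 5.89 and 6.16 on malnutrition. All malnutrition arrays lay within a narrow low range, and so, nearly, did optimal food replicate 1. Vm26Aa fell by 3.53 ± 1.12 (adjusted p = 0.0279), and Vm34Ca, for which optimal food replicate 1 read 6.87 and the remaining ones 10.35 to 11.71, fell by 3.44 ± 1.2 (adjusted p = 0.0492). Without optimal food replicate 1 the differences were -4.54 and -4.49. Both calls depended on the arrays used: Vm26Aa was lost without malnutrition replicate 1 (adjusted p = 0.0518), malnutrition replicate 2 (0.0685) and optimal food replicates 2 (0.0995), 3 (0.0616) and 4 (0.103), and Vm34Ca without any of the 7 arrays other than optimal food replicate 1 (adjusted p = 0.075 to 0.16). The gene ndl, a protease laid down in the eggshell that starts dorsoventral patterning, fell by 1.72 ± 0.38 (adjusted p = 0.000947). The difference was below 0 for all 20 measured genes of chorion and vitelline membrane (median -1.29), 3 of which were called (1 without malnutrition replicate 1 or 2 or without optimal food replicate 2, 3 or 4), and the list mean was 5.03 to 5.15 on malnutrition and 5.88 to 7.61 on optimal food.

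Within the germline the changes were smaller. Of 71 genes of germline and oogenesis 13 fell, 1 rose and 57 did not pass (19.7% called against 17.4% of all genes), with a median difference of -0.24. The number lower depended on single arrays, at 2 without malnutrition replicate 2, 7 without malnutrition replicate 1 and 5 without optimal food replicate 2, and 2 rose without malnutrition replicate 1 or optimal food replicate 4. The gene c(3)G, a structural protein of the synaptonemal complex that joins chromosomes in meiosis, read 8.98, 9.14, 8.89 and 9.27 on optimal food and 7.73, 7.69, 8.01 and 7.77 on malnutrition. Replicates agreed closely within each food and c(3)G fell by 1.27 ± 0.13 (adjusted p = 9.58e-09). The RNA-binding protein gene orb, which controls translation in the oocyte, fell by 0.55 ± 0.15 and the piRNA pathway gene squ by 0.54 ± 0.16. Without malnutrition replicate 2 the adjusted p was 0.0575 for orb and 0.0913 for squ, and for squ it was 0.055 without optimal food replicate 2. In contrast tud, a component of the germ plasm, rose by 0.59 ± 0.10 (adjusted p = 5.79e-05), but its difference was -0.14 with arrays centred on the neuron list and -0.29 with arrays centred on the muscle list.

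Genes of DNA replication and of mitosis, which in an adult female are known to be active mainly in the ovary and gut, had medians below that of all genes without reaching the threshold in most cases. Of 44 replication and repair genes 1, Cdc45 (a helicase subunit of the replication fork), fell by 0.52 ± 0.17 (adjusted p = 0.032), and the list median was -0.23. The call of Cdc45 was lost without malnutrition replicates 1 (adjusted p = 0.0655), 2 (0.139) and 4 (0.0525) and without optimal food replicates 1 (0.113), 2 (0.0624) and 4 (0.065), and 4 genes of the list fell without malnutrition replicate 3. Of 71 genes of mitosis and chromosome segregation 3 fell and 1 rose (median -0.17), and the number that fell was 1 without malnutrition replicate 1 or 2 or optimal food replicate 2 and 6 without malnutrition replicate 3. The one that rose was tacc, a protein of centrosomes and spindles, by 0.37 ± 0.07, with differences of -0.36 and -0.51 after centring on the neuron and the muscle list.

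In the fat body, the fly's counterpart of liver and adipose tissue, falls were called for 6 of 11 genes, while in 24 genes of fat synthesis and storage 7 fell, 2 rose and 15 did not pass. Lsd-1, the perilipin that coats lipid droplets, read 9.82, 9.73, 9.61 and 9.42 on optimal food and 9.02, 7.98, 7.90 and 8.2 on malnutrition. No malnutrition array reached the optimal food arrays and Lsd-1 fell by 1.37 ± 0.27 (2.58-fold, adjusted p = 0.000287). The fatty acid synthase FASN1 fell by 0.95 ± 0.20 (adjusted p = 0.000544), and Agpat2, an acyltransferase on the path to phospholipid and triglyceride, by 0.62 ± 0.13. Lpin, the phosphatase that makes diacylglycerol, moved the other way, from 8.75 to 9.05 on optimal food to 9.54 to 10.18 on malnutrition, a rise of 0.93 ± 0.20 (adjusted p = 0.000859). ACC, the acetyl-CoA carboxylase that commits carbon to fatty acids, was not called (0.07 ± 0.13, adjusted p = 0.785), nor was bmm, the main triglyceride lipase of the fat body (0.24 ± 0.11, adjusted p = 0.154). The median difference of the 24 genes was -0.15, and 1 of them rose without malnutrition replicate 2.

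The lipoprotein precursor apolpp, the scaffold of the particles that carry lipid in the blood, read 12.84, 12.68, 12.92 and 12.75 on optimal food and 12.04, 11.64, 11.49 and 11.27 on malnutrition, and fell by 1.19 ± 0.23 (adjusted p = 0.000188). Acbp3, an acyl-CoA-binding protein, fell by 1.98 ± 0.32 (adjusted p = 1.93e-05) and its groups were separate as well. AkhR, the receptor through which adipokinetic hormone mobilises fat, fell by 1.05 ± 0.29 (adjusted p = 0.00936, and 0.0505 without optimal food replicate 1). Another probe set of AkhR, with a mean of 5.39 over all arrays, was not called (-0.24, adjusted p = 0.514). The hormone's own gene, Akh, read 6.07 to 6.50 on optimal food and 5.76, 6.90, 7.27 and 7.56 on malnutrition, groups that overlap, and was not called (0.58 ± 0.28, adjusted p = 0.183). Of the 11 fat body genes 0 rose (median -0.78), or 1 without malnutrition replicate 1 or 3. Of 23 lipid carriers and receptors 4 fell, 3 rose and 16 did not pass (median 0.03). The number of carriers that rose was 0 without malnutrition replicate 2 and 1 without optimal food replicate 1 or 2. The mean of the fat body list was 9.49 to 9.87 on optimal food and 8.77 to 9.47 on malnutrition.

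Enzymes of amino acid and glucose metabolism gave a mixed picture. Oat, ornithine aminotransferase, fell by 1.18 ± 0.20 (adjusted p = 3.51e-05). Pepck1, a control point of gluconeogenesis, read 11.59 to 11.73 on optimal food but 12.24, 11.37, 11.00 and 10.30 on malnutrition, so that its malnutrition pools lay on both sides of the optimal food arrays, and it was not called (-0.47 ± 0.28, adjusted p = 0.302). Gnmt, the glycine N-methyltransferase that disposes of excess methionine cycle products, read 6.54 to 7.29 on optimal food and 8.87, 7.92, 6.8 and 8.57 on malnutrition. Malnutrition replicate 3 lay within the optimal food range and Gnmt was not called (1.13 ± 0.57, adjusted p = 0.21).

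Cytochromes P450 oxidise hormones, fatty acids and foreign compounds, and single members moved strongly in opposite directions. Cyp4e3 read 10.40, 10.10, 9.36 and 10.23 on optimal food and 7.53, 6.93, 7.09 and 6.82 on malnutrition. The gap between the groups was wide and Cyp4e3 fell by 2.92 ± 0.58 (7.59-fold, adjusted p = 0.000267). Cyp6a18 fell by 1.61 ± 0.22, whereas Cyp28a5 rose by 1.67 ± 0.22 and Cyp6d2 by 1.49 ± 0.22. Of 83 measured cytochromes P450 13 rose and 12 fell (median -0.03), so that 30.1% were called against 17.4% of all genes. GstD5, a glutathione transferase, rose by 1.75 ± 0.27, from 3.87 to 4.23 on optimal food to 5.26 to 6.63 on malnutrition. Its optimal food values lay near the means of the genes of the male reproductive tract (3.66 to 3.82) and were not shown to be above background, so the rise is a lower bound.

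Most ribosome biogenesis factors fell, by small and even amounts. Of 42 measured factors 27 fell, 0 rose and 15 did not pass, the difference was below 0 for 41 of them, and the median was -0.35 (range of the number lower without 1 array, 21 to 28). Polr1B, a core subunit of the RNA polymerase that makes ribosomal RNA, read 8.26, 8.27, 8.30 and 8.33 on optimal food and 7.67, 7.53, 7.64 and 7.45 on malnutrition. The spread within each food was far smaller than the step between them, and Polr1B fell by 0.72 ± 0.11 (adjusted p = 5.68e-06). Among nucleolar factors mbm fell by 0.60 ± 0.10 and wcd, of the U3 particle that cuts ribosomal RNA, by 0.59 ± 0.08.

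Few genes of the ribosome's own proteins were called. Their median level over all arrays was 13.42, against 9.47 for the biogenesis factors. Whether probe sets at so high a level show a change in full was not tested. Of 34 cytosolic ribosomal protein genes 1, RpS7, was called (fell by 0.17 ± 0.05, adjusted p = 0.0173, and 0.0631 without malnutrition replicate 2 and 0.0718 without optimal food replicate 2), and the median difference was 0.01. Optimal food replicate 1 had a list mean of 11.96, below the 12.44 to 12.45 of the other optimal food arrays and the 12.37 to 12.41 of the malnutrition arrays. Of 32 tRNA synthetases, which charge tRNAs with amino acids, 4 fell and 0 rose (median -0.18, and 2 lower without malnutrition replicate 4, optimal food replicate 2 or optimal food replicate 4), among them beta-PheRS by 0.38 ± 0.09. The elongation factor gene eEF1alpha2 stood apart from these and rose by 1.24 ± 0.18 (adjusted p = 1.88e-06), from 10.19 to 10.43 on optimal food to 11.19 to 12.07 on malnutrition.

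**Figure D2:**
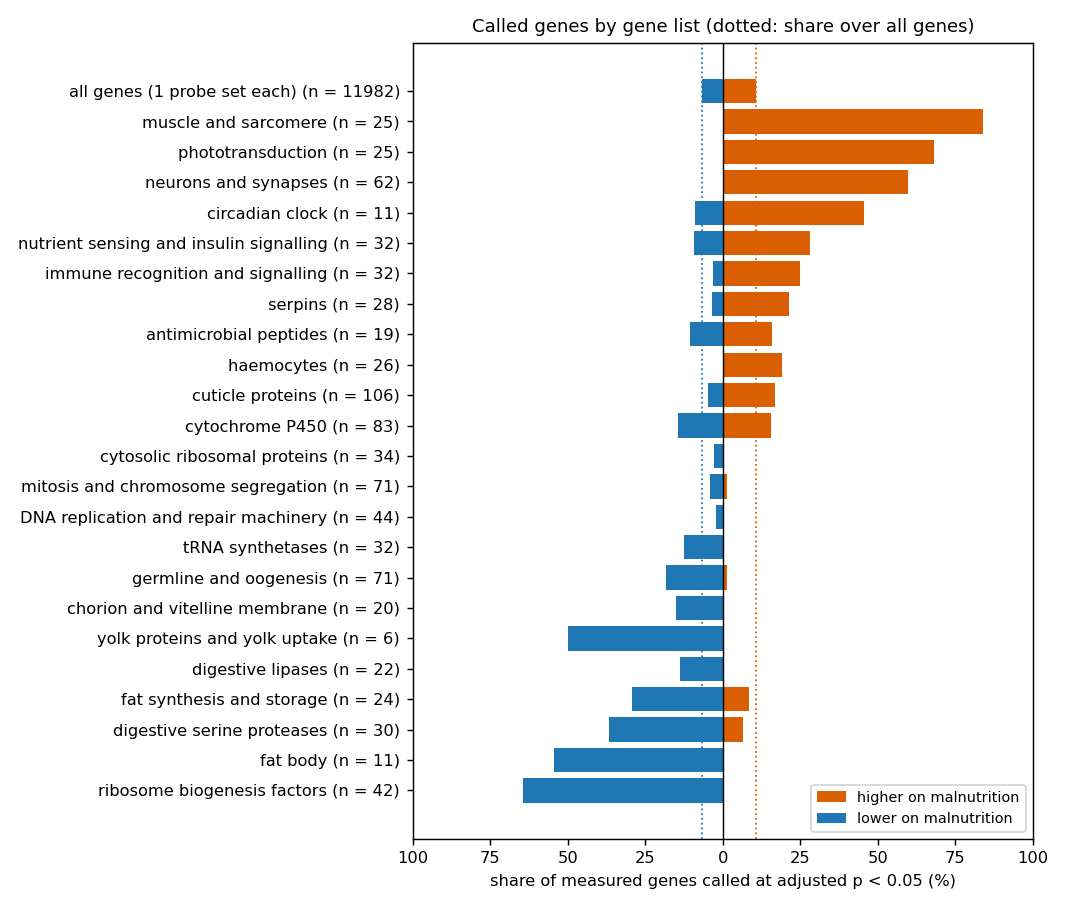
Share of measured genes called higher (orange, right) or lower (blue, left) on malnutrition at an adjusted p under 0.05, in % of each gene list, for middle-aged C flies. Dotted lines mark the shares over all 11982 genes, 10.7% higher and 6.7% lower. Muscle, phototransduction and neuron lists reach farthest to the right (21 of 25, 17 of 25 and 37 of 62 genes), a direction whose list medians fall to -0.03 and -0.05 for phototransduction and neurons when arrays are centred on the neuron list, and ribosome biogenesis farthest to the left (27 of 42).

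Most measured genes of muscle, nerve cells and the eye rose on malnutrition in the deposited scaling. Of 25 muscle and sarcomere genes 21 rose and 0 fell, with a median difference of 0.92. The median was 0.18 with arrays centred on the neuron list, and near 0 by construction (0.04) with arrays centred on the muscle list itself. The number that rose was 12 without malnutrition replicate 2. Act88F, the actin of the indirect flight muscles, read 7.95, 7.89, 9.34 and 8.44 on optimal food and 10.99, 11.98, 10.75 and 11.41 on malnutrition. The groups were well apart and Act88F rose by 2.88 ± 0.35 (7.37-fold, adjusted p = 1.92e-07). TpnC41C, a troponin C that gives muscle its calcium response, rose by 1.45 ± 0.23, Zasp52, a protein of the Z-disc, by 1.28 ± 0.20, and sls, a titin-like spring protein, by 1.26 ± 0.26. Scp1, which encodes a calcium-binding protein of the sarcoplasm, rose by 2.75 ± 0.18 (adjusted p = 1.5e-13), from 8.47 to 8.66 on optimal food to 11.18 to 11.72 on malnutrition.

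Of 62 genes of neurons and synapses 37 rose and 0 fell (median 0.69). With arrays centred on the neuron list itself the median lay near 0 by construction (-0.05), and with arrays centred on the muscle list it was -0.19. Sh, a voltage-gated potassium channel of nerve and muscle, read 5.52, 5.36, 5.49 and 5.28 on optimal food and 6.89, 7.79, 7.02 and 7.25 on malnutrition. Malnutrition replicate 2 was the highest array and the rise was 1.83 ± 0.22 (adjusted p = 1.18e-07). Further probe sets of Sh, with means of 6.17 and 5.76 over all arrays, rose by 1.78 and 1.41. Dim ones, with means of 3.51 to 4.46, were not called (-0.04 to 0.14, adjusted p = 0.459 to 0.845). The synaptic vesicle genes Syngr, VAChT (which loads acetylcholine) and Syn rose by 1.78 ± 0.20, 1.76 ± 0.23 and 1.69 ± 0.20. Of 25 phototransduction genes 17 rose and 0 fell (median 0.71, and -0.03 and -0.17 with arrays centred on the neuron and the muscle list). They included Gbeta76C, the G protein subunit of the visual cascade (1.78 ± 0.18 higher), the light-gated channel trp (1.78 ± 0.22 higher), its kinase inaC (1.71 ± 0.19 higher) and the scaffold inaD (1.51 ± 0.20 higher).

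The rise of these lists was common to all malnutrition arrays and differed between them. The mean of the muscle list was 9.13, 9.09, 9.47 and 9.21 in optimal food replicates 1 to 4 and 10.01, 10.57, 9.77 and 10.07 in malnutrition replicates 1 to 4. The mean of the neuron list was 5.66 to 5.80 on optimal food and 6.26 to 6.76 on malnutrition, and that of the phototransduction list 7.43 to 7.48 and 8.01 to 8.63. Malnutrition replicate 2 had the highest mean of all 3 lists, and the lowest mean of the germline list (8.95, against 9.06 to 9.31 in the other malnutrition arrays and 9.33 to 9.43 on optimal food). Whether the make-up of the pooled bodies took part in these differences was not tested. RMA scales arrays to each other on their probe intensities, so the zero of the scale is a choice. The median over all probe sets moved by -0.73 when the neuron list was set to equal means in all arrays, and by -0.88 when the muscle list was. Under these settings 2.78% and 1.88% of the calls were higher.

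**Figure D3:**
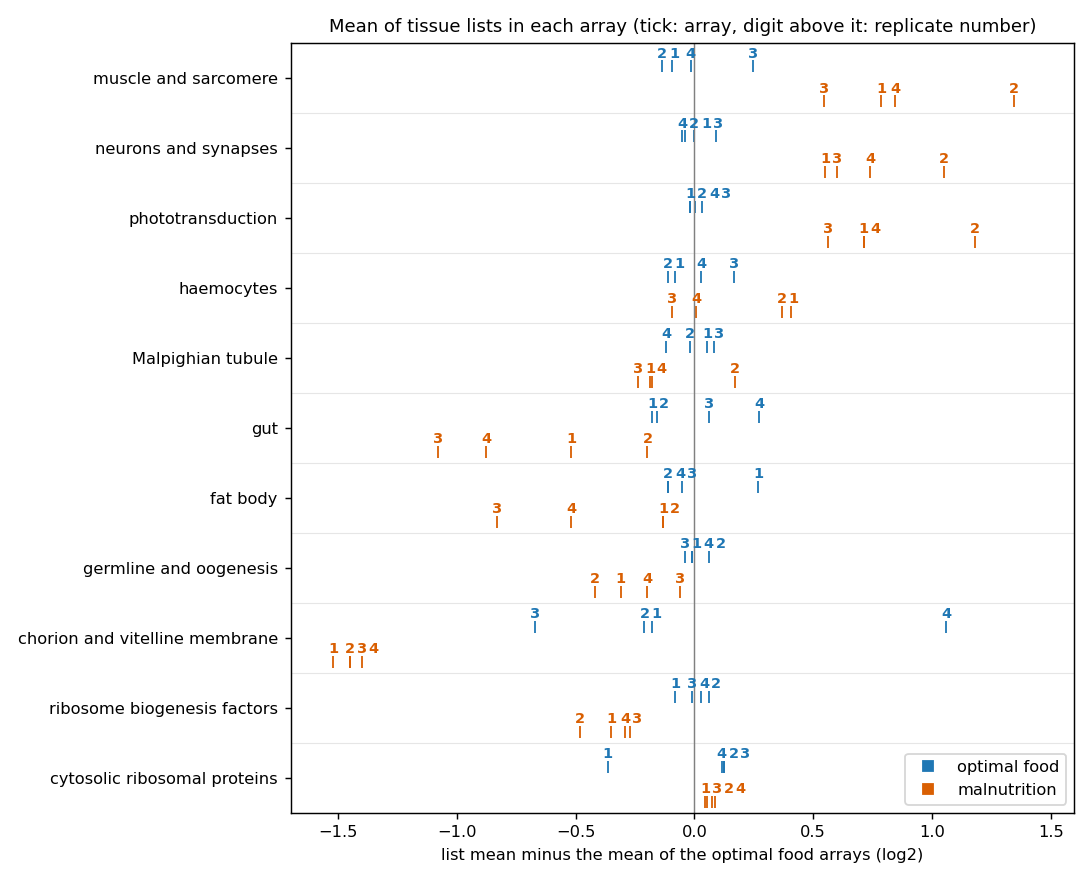
Mean of the log2 values of 11 tissue and process lists in each of the 4 optimal food arrays (blue) and 4 malnutrition arrays (orange), drawn as the distance from the mean of the optimal food arrays (log2, horizontal axis). Each tick is an array and the digit above it the replicate number. Muscle, neuron and phototransduction means are higher in all 4 malnutrition arrays in this scaling, and malnutrition replicate 2 is farthest to the right in all 3. After centring on the neuron list the phototransduction median is -0.03, and the neuron median is near 0 by construction (-0.05). Optimal food replicate 1 stands apart at the ribosomal proteins (11.96).

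Immune genes changed in both directions. Bomanins are short secreted peptides induced by the Toll pathway, which responds to fungi and Gram-positive bacteria. BomBc3 read 9.27, 9.01, 10.30 and 8.68 on optimal food and 12.01, 12.12, 11.64 and 12.71 on malnutrition. All malnutrition arrays were higher and BomBc3 rose by 2.80 ± 0.49 (6.98-fold, adjusted p = 4.69e-05). BomS2 and BomS5 rose by 2.00 ± 0.29 and 1.94 ± 0.29. Bomanins are close paralogs, so the part of each gene in these values is uncertain. In contrast the drosomycin-like peptide Drsl4 fell by 1.47 ± 0.34 (adjusted p = 0.00185). The defensin gene Def fell by 1.18 ± 0.36 (adjusted p = 0.0193), a call lost without malnutrition replicate 1 (0.142) and without optimal food replicate 3 (0.0856). Of 19 antimicrobial peptides 3 rose and 2 fell (1 without malnutrition replicate 1 or optimal food replicate 3), with a median of 0.20 that became -0.53 and -0.68 with arrays centred on the neuron and the muscle list.

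Upstream of these peptides, SPE, the protease that cleaves the Toll ligand, rose by 1.55 ± 0.30 (adjusted p = 0.000198) and nec, a serpin that restrains the same cascade, by 1.41 ± 0.26. The gene vir-1, a marker of the JAK-STAT pathway in virus infection, rose by 1.88 ± 0.23. PGRP-SC2, an amidase of the gut that destroys bacterial peptidoglycan and dampens immune signalling, read 8.68, 8.57, 8.68 and 8.51 on optimal food and 7.31, 7.35, 7.24 and 7.44 on malnutrition. Both groups were tight and it fell by 1.27 ± 0.25 (adjusted p = 0.000285). Of 32 genes of immune recognition and signalling 8 rose and 1 fell (median 0.05, with 5 higher without malnutrition replicate 2). Of 28 serpins, inhibitors of serine proteases, 6 rose and 1 fell (median 0.11, and -0.63 and -0.77 with arrays centred on the neuron and the muscle list). The number of serpins that fell was 0 without malnutrition replicate 3 or optimal food replicate 1 or 2, and 2 without malnutrition replicate 4. Spn88Eb rose by 1.64 ± 0.29, with malnutrition replicate 4 at 10.79 and the remaining malnutrition arrays at 8.89 to 8.99, and Spn28Dc by 1.33 ± 0.24.

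Haemocytes are the blood cells that engulf microbes. Of 26 of their genes 5 rose and 0 fell (19.2% called against 17.4% of all genes), and the median difference was 0.06. The number that rose was 3 without malnutrition replicate 1, 3 without malnutrition replicate 2 and 8 without malnutrition replicate 3. Idgf1, a chitinase-like growth factor, rose by 1.25 ± 0.27, and the prophenoloxidase PPO2, which is needed for melanin, by 0.70 ± 0.19 (adjusted p = 0.00824), a call lost without malnutrition replicate 1 (0.0517) and replicate 2 (0.0536). PPO2 differed by -0.03 and -0.17 with arrays centred on the neuron and the muscle list. The mean of the haemocyte list was 7.07 to 7.35 on optimal food and 7.09 to 7.59 on malnutrition, so the groups overlapped.

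Some genes of stress were among the highest rises. Yet of 21 Turandot and heat shock genes 4 rose, 1 fell and 16 did not pass (23.8% called against 17.4% of all genes, median -0.01). Sid, a stress-induced DNase, read 5.45, 5.38, 5.91 and 5.47 on optimal food and 9.07, 8.21, 8.34 and 9.86 on malnutrition. It went from a low and even level to a high one in every pool, a rise of 3.32 ± 0.44 (9.97-fold, adjusted p = 6.97e-07). TotC, one of the Turandot peptides that stressed flies release into the blood, was higher as well (2.48 ± 0.54, adjusted p = 0.000813), with malnutrition replicate 3 at 7.28 and the remaining malnutrition arrays at 8.72 to 9.27. The co-chaperone stv, which helps clear damaged muscle proteins, rose by 1.71 ± 0.21 and the chaperone Hsc70-1 by 1.33 ± 0.21. A further probe set of Hsc70-1 also rose (by 1.27) and another was not called (0.45, adjusted p = 0.159).

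Genes that sense nutrients moved in a selective way. InR, the insulin receptor, whose transcription FOXO is known to raise when insulin is low, read 7.53, 7.89, 8.02 and 7.48 on optimal food and 8.76, 9.22, 8.91 and 8.89 on malnutrition. All malnutrition arrays were above all optimal food arrays, and InR rose by 1.22 ± 0.19 (2.32-fold, adjusted p = 6.41e-06). ImpL2, a secreted protein that binds insulin-like peptides, rose by 1.36 ± 0.24 (adjusted p = 5.42e-05) and HDAC4, a histone deacetylase that activates FOXO in fasting, by 1.12 ± 0.20. The relaxin-like peptide gene Ilp8 read 9.34, 9.41, 9.36 and 9.31 on optimal food and 8.06, 7.67, 8.22 and 8.04 on malnutrition, a fall of 1.36 ± 0.16 (adjusted p = 5.95e-08) between groups that are each within a narrow range. The transcript of foxo itself was not called (-0.02 ± 0.14, adjusted p = 0.964), and neither were Sesn, a stress-induced inhibitor of TOR (0.23 ± 0.09, adjusted p = 0.0862), or the sugar-responsive factor sug (-0.55 ± 0.27, adjusted p = 0.191). Of 32 genes of nutrient sensing and insulin signalling 9 rose and 3 fell (median 0.05).

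Arc1, which in the fly is expressed in neurons and forms capsids that carry its own RNA, and which is known to take part in the behaviour of starved flies, had one of the most even responses. It read 10.46, 10.26, 10.56 and 10.58 on optimal food and 13.04, 12.58, 12.91 and 12.81 on malnutrition. The groups lay far apart relative to their spread, and the rise was 2.37 ± 0.16 (5.16-fold, adjusted p = 2.74e-13). A second probe set of Arc1 rose by 2.45. Its neighbour and paralog Arc2 rose by 1.27 ± 0.15.

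Of 11 circadian clock genes 5 rose and 1 fell, with a median of 0.40 that became -0.33 and -0.48 with arrays centred on the neuron and the muscle list. Without malnutrition replicate 2 the number that rose was 3, and the number that fell was 0 without malnutrition replicate 1 or 2 or optimal food replicate 2 or 4. The clock gene tim rose by 0.98 ± 0.19 (adjusted p = 0.000217), from 8.54 to 8.79 on optimal food to 9.19 to 10.15 on malnutrition, and vri, a repressor in the second loop of the clock, by 0.89 ± 0.22. Another, dim probe set of tim, with a mean of 4.61 over all arrays, was not called (0.02, adjusted p = 0.961). Clk, the activator of the clock, rose by 0.90 ± 0.26 (adjusted p = 0.0143, and 0.0667 without malnutrition replicate 2 and 0.0712 without optimal food replicate 2). Pdp1, which drives Clk, rose by 1.10 ± 0.34 (adjusted p = 0.0199), a call lost without malnutrition replicate 1 (0.0549), malnutrition replicate 2 (0.074), optimal food replicate 1 (0.0898) and optimal food replicate 4 (0.0705). The hour of day at which flies were frozen is not given in the sources used here.

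Several of the highest rises belong to genes with no role given here. CG13215 read 5.81, 5.48, 5.76 and 5.42 on optimal food and 8.65, 9.48, 8.50 and 8.66 on malnutrition, a rise of 3.21 ± 0.28 (9.24-fold, adjusted p = 2.2e-10). Its optimal food arrays were low and close together and its malnutrition arrays all well above them. CG4213 rose by 2.63 ± 0.21, CG14022 by 2.36 ± 0.23, CG11842, a gene of the serine protease family, by 2.25 ± 0.31 and CG15784 by 2.16 ± 0.25. In the Malpighian tubule, the fly's kidney, 2 of 7 genes fell and 0 rose, the organic anion transporters Oatp58Da, by 0.47 ± 0.14, and Oatp58Db, by 0.54 ± 0.17 (adjusted p = 0.0243). The call of Oatp58Db was lost without malnutrition replicate 3 (0.0703), malnutrition replicate 4 (0.0526), optimal food replicate 2 (0.0859) and optimal food replicate 4 (0.0557).

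The same change of food was set beside its effect in the SR line, whose arrays are shared with none of the C arrays. In middle-aged SR flies 2621 probe sets were called (14.0% of those tested). With 1 probe set per gene, 9.16% of genes were higher and 8.35% lower. Both lines shared 926 calls, of which 514 were higher in both, 397 lower in both and 15 opposite. Calls in the same direction made up 34% of the C calls and 34.8% of the SR calls. Of the probe sets higher in C flies 83.4% had a positive difference in SR flies, and of those lower in C flies 80.7% had a negative one, where 56.3% of all probe sets had the same sign. A test of the difference itself, C response minus SR response, called 406 probe sets (2.16%), 294 with a higher and 112 with a lower response in C flies. With 1 probe set per gene these shares were 1.94% and 0.701%. The count was 64 without C malnutrition replicate 2, 177, 1289 and 227 without replicates 1, 3 and 4 of that group, 82 and 164 without C optimal food replicates 2 and 4, 123 to 200 without any of the 4 SR malnutrition arrays, and 93 without SR optimal food replicate 4. The count of SR calls was 1738 and 1704 without SR optimal food replicates 1 and 4.

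Several large falls of C flies had the same direction in SR flies. The genes given here are examples from those named above, and not all of the deepest falls. Jon99Fi differed by -4.91 in SR flies, Obp56a by -2.97, mag by -3.47, Yp3 by -3.07, fit by -3.72 and Vm26Aa by -5.21, and for none of these was the difference between lines called (adjusted p = 0.151 to 0.977). The lack of a call does not show that the responses were equal. Scp1, at 2.75 in C and 2.7 in SR flies, and CG13215, at 3.21 and 2.54, rose in both lines. Ribosome biogenesis factors fell in SR flies too, with 24 of 42 lower, 1 higher and a median of -0.29. Cyp4e3 differed by -1.16 in SR flies (adjusted p = 0.187), and the difference between lines was not called (adjusted p = 0.192).

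A difference between lines was called for 19 of 121 genes named here, and for 18 of them the C response was the higher one. Most of the 121 genes were named for a large change in C flies, which is a term of this difference, so the choice favours the count. Over all genes 1.94% had a higher and 0.701% a lower response in C flies. BomBc3 differed by 2.80 in C and -0.04 in SR flies (difference 2.84, adjusted p = 0.0279), BomS5 by 1.94 and 0.04 (difference 1.90, adjusted p = 0.0133) and BomS2 by 2.00 and 0.40 (difference 1.6, adjusted p = 0.0374, called in 5 of 16 fits without 1 array, with an adjusted p of up to 0.119). Arc1 rose in both, by 2.37 in C and 0.90 in SR flies (difference 1.47, adjusted p = 0.000523). On optimal food Arc1 read 10.26 to 10.58 in C and 11.52 to 11.97 in SR flies, and on malnutrition 12.58 to 13.04 and 12.51 to 12.67. BomBc3 read 8.68 to 10.30 in C and 9.79 to 12.53 in SR flies on optimal food. On malnutrition it read 11.64 to 12.71 and 10.43 to 11.85. Cpr72Ec differed by 2.15 and -0.08 (difference 2.24, adjusted p = 0.00306) and Spn88Eb by 1.64 and -0.34 (difference 1.98, adjusted p = 0.0102). Ilp8 was the one named gene with a lower response in C flies, at -1.36 and -0.23 (difference -1.13, adjusted p = 0.00536). These calls of BomS5, Arc1, Cpr72Ec, Spn88Eb and Ilp8 were kept in all 16 fits that left out 1 array, and that of BomBc3 in 9 of 16 (adjusted p = 0.0535 to 0.0973 without C malnutrition replicate 2 or 4, C optimal food replicate 2 or 4, SR malnutrition replicate 3 or 4, or SR optimal food replicate 4).

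Of the 25 phototransduction genes 8 had a higher response in C than in SR flies, of the 62 neuron genes 6, of the 25 muscle genes 1 and of the 106 cuticle genes 10, against 1.94% of all genes. Without C malnutrition replicate 2 these numbers were 2, 0, 0 and 5, and over all 16 fits that left out 1 array they were 2 to 9, 0 to 8, 0 to 6 and 5 to 13. The calls of Gbeta76C, trp, inaC, inaD and Syngr were all lost without C malnutrition replicate 2 and without SR optimal food replicate 4. Act88F, the muscle gene, differed by 2.88 in C and 0.96 in SR flies (difference 1.92, adjusted p = 0.0374, called in 7 of 16 fits without 1 array), and inaD by 1.51 and 0.27 (difference 1.25, adjusted p = 0.0181, called in 14 of 16, and 0.0688 without C malnutrition replicate 2 and 0.0655 without SR optimal food replicate 4). The mean of the neuron list was 5.98 to 6.14 in SR flies on optimal food and 6.36 to 6.54 on malnutrition, where in C flies it was 5.66 to 5.80 and 6.26 to 6.76. In the mitosis list 14 of 71 genes were higher on malnutrition in SR flies (median 0.32; 6 and 7 without SR optimal food replicates 1 and 4, and 9 without SR malnutrition replicate 4), and a difference between lines was called for 4 of 71, all with a lower response in C flies. That number was 0 without any one of C malnutrition replicates 1, 2 and 4, C optimal food replicates 2 and 4, the 4 SR malnutrition arrays and SR optimal food replicate 4, and 14 without C malnutrition replicate 3. In the replication list 11 of 44 genes were higher on malnutrition in SR flies (median 0.29; 6 without SR optimal food replicate 1 or 4, 7 without SR optimal food replicate 2 or SR malnutrition replicate 4), and a difference between lines was called for 0 of 44. On optimal food the mitosis mean was 8.74 to 8.93 in SR and 9.09 to 9.25 in C flies, and its part in these values was not tested.

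**Figure D4:**
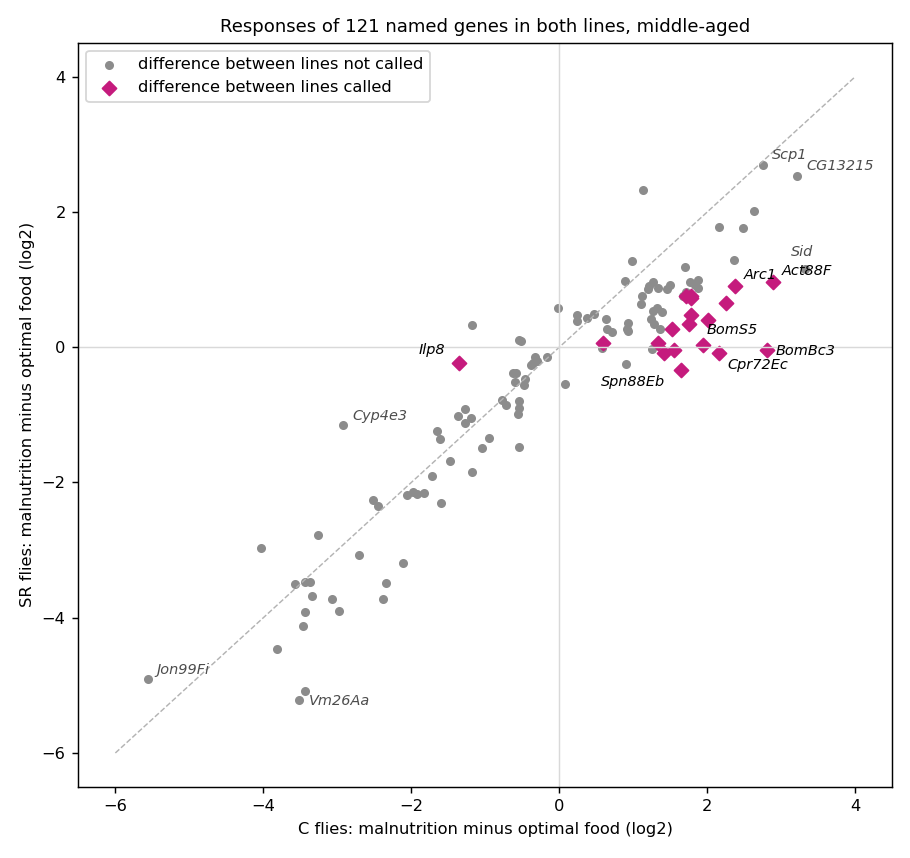
Log2 difference between malnutrition and optimal food in middle-aged C flies (horizontal axis) and SR flies (vertical axis) for the 121 genes named in the text, each axis from 4 arrays per food. Diamonds are the 19 genes with a called difference between lines, grey points the others, and the dashed line marks equal differences. Most falls lie near the dashed line (Jon99Fi at -5.56 and -4.91), while BomBc3, BomS5, Cpr72Ec and Spn88Eb lie near 0 on the SR axis.

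In C flies the response at middle age was also tested against the response at old age, which comes from 3 malnutrition and 4 optimal food arrays. Here 1020 probe sets (5.43%) were called. With 1 probe set per gene, 4.8% of genes had a higher and 2.38% a lower response at middle age. The count was 237 and 653 without old malnutrition replicates 1 and 2, and 2190, 289 and 461 without old optimal food replicates 1, 3 and 4. It was 401, 345 and 1719 without middle-aged malnutrition replicates 1, 2 and 3, and 589 and 400 without middle-aged optimal food replicates 1 and 2. Arc1 differed by 2.37 at middle and 0.74 at old age (difference 1.63, adjusted p = 6.48e-05), Cpr72Ec by 2.15 and -0.41 (difference 2.56, adjusted p = 0.000307) and Spn88Eb by 1.64 and -0.72 (difference 2.36, adjusted p = 0.001). Scp1 rose less at old age (1.51, difference 1.23, adjusted p = 0.00532). These 4 calls were kept in all 15 fits that left out 1 array.

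Among the named genes that fell at middle age, a deeper fall at old age was called for Acbp3, fit, Obp56e, Def and Oatp58Da, and a difference between ages was called for 0 of 6 genes of yolk and its uptake. Acbp3 differed by -1.98 at middle and -4.77 at old age (difference 2.79, adjusted p = 0.000469, kept in all 15 fits without 1 array). The gene fit differed by -3.07 and -6.26 (difference 3.19, adjusted p = 0.00993, and 0.0519 without old malnutrition replicate 1), and Obp56e by -2.05 and -3.98 (difference 1.93, adjusted p = 0.0101, and 0.0683 without the same array). Of the 30 digestive serine proteases 8 had a higher difference at middle age than at old age, of the 13 gut genes 4, of the 19 antimicrobial peptides 7 and of the 79 subunits of oxidative phosphorylation 20, against 4.8% of all genes. Without old malnutrition replicate 1 these numbers were 3, 1, 3 and 2, and over all 15 fits that left out 1 array they were 3 to 13, 1 to 7, 3 to 9 and 1 to 31. The mean of the antimicrobial peptide list on malnutrition was 7.81 to 8.11 at middle and 7.75 to 8.12 at old age. On optimal food it was 7.40 to 7.99 at middle and 8.71 to 9.55 at old age. Jon99Fi, at -5.56 and -5.55, and Yp3, at -2.7 and -3.76, were not called for a difference between ages (adjusted p = 0.995 and 0.205). GATAe differed by 0.92 at middle and -0.61 at old age (difference 1.53, adjusted p = 0.0108, and 0.0581 without old malnutrition replicate 1). The clock gene tim was the one of these named genes with a higher difference at old age (1.94, difference -0.96, adjusted p = 0.0407, called in 3 of 15 fits without 1 array).

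Overfeeding, the step from optimal food in the other direction, gave far fewer calls. Against optimal food 2 probe sets (0.0107%) were called by limma in middle-aged C flies, CG12998 and the metallothionein gene MtnA, which are named here after their values were seen, and 1186 had an unadjusted p under 0.05, against 4828 for malnutrition. Both comparisons share the optimal food arrays, so their values are only set side by side. Jon99Fi read 8.60, 8.94, 10.05 and 11.27 on overfeeding, between the malnutrition and optimal food arrays or within the latter. Yp3 read 12.72 to 13.47 on overfeeding and 12.50 to 13.02 on optimal food. Act88F read 6.57 to 7.21 on overfeeding, below the 7.89 to 9.34 of optimal food, and InR read 7.04 to 7.70 against 7.48 to 8.02. The differences from optimal food were -1.16 for Jon99Fi, 0.42 for Yp3, -1.48 for Act88F, -0.35 for InR and -0.47 for BomBc3, none of them called. Few calls do not mean that all differences were small. The 20 chorion and vitelline membrane genes had a median difference of 1.24 on overfeeding, 15 above 0 and 5 below, with 0 called. Their list mean was 6.57 to 9.80 on overfeeding and 5.88 to 7.61 on optimal food.

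**Figure D5:**
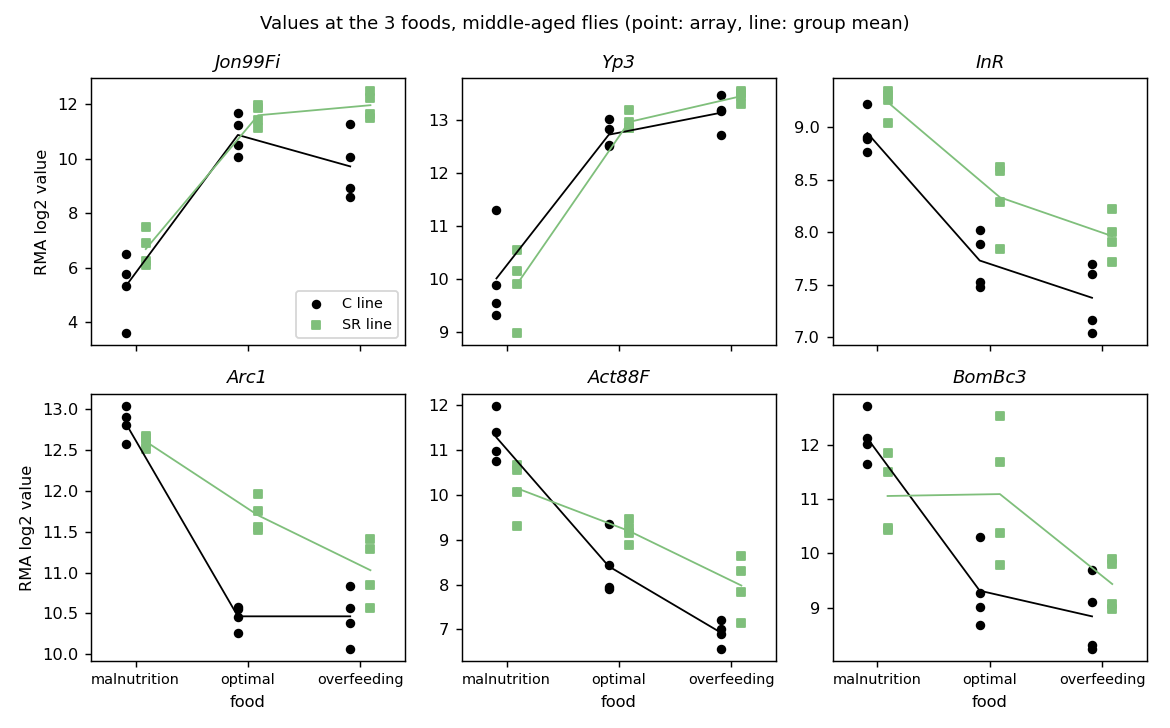
Log2 expression of 6 genes in middle-aged flies on malnutrition (0.5 of the standard medium), optimal food (2) and overfeeding (5), for the C line (black circles) and the SR line (green squares). Each point is an array, 4 per group, and lines join group means on evenly spaced food classes. In SR flies BomBc3 lies at a like height on malnutrition and optimal food. In C flies the step between malnutrition and optimal food is the larger one for all 6 genes (InR 1.22 and -0.35). Most named genes were chosen by the size of that step, so this order is in part a product of the choice.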

How the data were processed

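Per the study's methods and the submitters' processing notes, RNA of pools of 5 whole females was hybridised to Affymetrix Drosophila Genome 2.0 arrays, and the authors made the deposited log2 values with RMA in R 2.7.0 (background correction, quantile normalisation over arrays, 1 value per probe set). The authors had left out 2 arrays of unsatisfactory quality. Quantile normalisation acts on probe intensities before they are summarised, and the medians of the deposited probe set values still differed between arrays (5.04 to 5.27). Differences are relative to the whole transcriptome.

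Of 18952 probe sets 183 array controls were left out and 18769 tested. limma 3.58.1 (R 4.3.3) fitted 1 mean for each of 12 groups over 46 arrays (lmFit, eBayes, two-sided), with Benjamini-Hochberg adjustment over all probe sets and calls at an adjusted p under 0.05. The methods name an ANOVA with a false discovery rate of the same size. Gene names came from the platform annotation: 13647 probe sets have 1 symbol, 402 several and 4720 none, and 13544 of the probe sets with 1 symbol matched RefSeq. A gene is its probe set with the highest mean over all arrays.

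Named were the 12 highest and 12 lowest called genes whose groups do not overlap and whose higher mean is at least 6, up to 4 called members of each of 44 gene lists with the largest difference, and a list of reference genes. The text uses 121 of these genes and 35 lists. The comparison, its members and all lists were chosen with earlier results of these data known. Alternatives were the arrays in the fit, the replicate block, a filter at a mean of 5, 3 other scalings, array weights, 1 probe set per gene, an adjusted p under 0.01, and leaving out each array. Alternatives for overfeeding, for list counts (those of line, age and SR differences included) and for the line and age differences of named genes were added after seeing the data. The fit was tested on simulated data. Promoter motifs were planned and not run. Figures were drawn with matplotlib 3.10.9 in Python 3.11.15.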

Additional observations from a re-analysis of the deposited data

Results flagged for a closer look

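In 20 of 312 groups of 4 arrays tested for a named gene or a list mean, 1 array lay farther from the other arrays than Dixon's critical value allows. Chance alone marks about 1 group in 20. Of these, 9 were malnutrition replicate 2 and 5 were optimal food replicate 1. Malnutrition replicate 2 was the high array for inaD (8.50, others 7.57 to 7.72), Hsc70-1 (8.83, others 7.84 to 7.93), ImpL2 (10.92, others 10.34 to 10.42), Sesn (10.00, others 9.74 to 9.78), CG13215 (9.48, others 8.50 to 8.66) and Scp1 (11.72, others 11.18 to 11.22). It also had the highest mean of the lists of nutrient sensing (8.81, others 8.68 to 8.70), Malpighian tubule (6.07, others 5.66 to 5.72) and autophagy and lysosome (8.74, others 8.61).

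Optimal food replicate 1 was high for Lpin (9.05, others 8.75 to 8.78), Fer1HCH (12.84, others 12.57 to 12.59) and the fat body list (9.87, others 9.49 to 9.55), and low for tud (9.09, others 9.37 to 9.38) and the ribosomal protein list (11.96, others 12.44 to 12.45). The remaining marks were Vm34Ca in malnutrition replicate 3 (6.51, others 6.61 to 6.63), Pepck1 in optimal food replicate 3 (11.59, others 11.72 to 11.73), Spn88Eb in malnutrition replicate 4 (10.79, others 8.89 to 8.99), Sid in optimal food replicate 3 (5.91, others 5.38 to 5.47), the immune recognition list in optimal food replicate 2 (7.72, others 7.81 to 7.82) and the secretory pathway list in malnutrition replicate 1 (9.71, others 9.72). The tested values were rounded to 2 decimals, and the last of these marks is of the size of that rounding, so it does not show a distant array.

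Differences between lines, C response minus SR response, were called by limma for 19 named genes. Beside those described above they were 0.52 for tud (adjusted p = 0.049), 1.41 for GstD5 (0.044), 1.06 for Syngr (0.044), 1.02 for Gbeta76C (0.0328), 1.31 for trp (0.023), 0.95 for inaC (0.0498), 1.6 for SPE (0.0387), 1.5 for nec (0.0305), 1.27 for Spn28Dc (0.0374) and 1.61 for CG11842 (0.0458). Leaving out 1 of 16 arrays kept these calls in 2 fits for tud, 3 for Syngr and inaC, 4 for GstD5 and CG11842, 5 for SPE and Spn28Dc, 8 for nec, 9 for Gbeta76C and 12 for trp. The values of the genes described above were 2.24 for Cpr72Ec, 1.92 for Act88F, 1.25 for inaD, 2.84 for BomBc3, 1.6 for BomS2 (called in 5 of 16 fits), 1.90 for BomS5, 1.98 for Spn88Eb, -1.13 for Ilp8 and 1.47 for Arc1.

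Differences between ages, response at middle age minus response at old age, were called for 20 named genes. They were 1.53 for GATAe, 1.93 for Obp56e, 2.56 for Cpr72Ec, 3.19 for fit, 2.79 for Acbp3, 2.36 for Spn88Eb, 1.63 for Arc1, -0.96 for tim and 1.23 for Scp1, all described above. The other genes were Act88F at 2.41 (adjusted p = 0.0057, and 0.0511 without old malnutrition replicate 1), nec at 1.58 (0.0145, and 0.0993 without the same array), BomBc3 at 2.35 (0.0476), BomS5 at 1.6 (0.026), Def at 1.72 (0.0474), SPE at 1.65 (0.0264), Spn28Dc at 1.17 (0.0409), TotC at 3.05 (0.0223), Clk at 1.39 (0.0325), SdhB at 0.59 (0.0359) and Oatp58Da at 0.66 (0.0481). Of 15 fits that left out 1 array, the call was kept in 4 for BomBc3 and Oatp58Da, 5 for Def, 6 for Spn28Dc, 8 for Clk and SdhB, 9 for BomS5 and SPE, and 10 for TotC.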

How the results depend on the processing

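Of 1904 pairs of a called named gene and an alternative, 1816 kept direction and call, 76 kept direction only and 12 turned. These pairs include neuron and muscle centring, which moved the median over all probe sets by -0.73 and -0.88. For the 54 named genes that fell, keeping direction and call there was nearly fixed in advance. Of the 112 called named genes 99 and 94 kept both under these settings, and 6 and 6 turned. Malnutrition calls in C flies numbered 2458 with the 8 arrays alone, 2628 after the filter on dim probe sets, 3514 with median-centred arrays, 3489 with array weights, 1714 at an adjusted p under 0.01, 17283 with neuron-centred and 17471 with muscle-centred arrays, and 1781 to 2937 without 1 array. Neuron centring gave 10249 calls in SR flies, 231 for the difference between lines and 568 for that between ages, and fits without 1 array gave 1704 to 2677, 64 to 1289 and 237 to 2190. Overfeeding gave 2 to 3. Replicate numbers are shared between groups, but deviations of same-numbered arrays correlated at -0.313 to 0.018, so they were not taken as pairs. With the replicate block the counts were 2811 for C, 2745 for SR, 357 for lines, 1110 for ages and 2 for overfeeding, and none of the 112 called named genes lost its call. Differences that turned under neuron and muscle centring were those of tud (-0.14, -0.29), ACC (-0.66, -0.80), bmm (-0.50, -0.64), Sesn (-0.50, -0.64), Akh (-0.15, -0.30), Fer1HCH (-0.10, -0.25), Fer2LCH (-0.10, -0.24), SdhB (-0.27, -0.41), PPO2 (-0.03, -0.17) and tacc (-0.36, -0.51), and the medians of the neuron (-0.05, -0.19), phototransduction (-0.03, -0.17), antimicrobial peptide (-0.53, -0.68), serpin (-0.63, -0.77) and clock (-0.33, -0.48) lists. ACC was -0.02 with median centring and 0.00 to 0.13 without 1 array, and foxo -0.09 to 0.05. Centring on a list sets that list's own change to 0 by construction. No other cause was tested. Precision is limited by 4 pools a group of 1 line each, and probe sets near background have compressed differences.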

Other observations

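Mitochondrial and iron genes were described apart from the comparisons above. Of 79 subunits of oxidative phosphorylation 14 rose and 1 fell (median 0.09). The number that rose was 6 without malnutrition replicate 2 and 8 without optimal food replicate 1 or 2, and the number that fell was 0 without malnutrition replicate 1 or 2 or optimal food replicate 1 and 2 without optimal food replicate 3. SdhB, the iron-sulphur subunit of succinate dehydrogenase, read 10.36, 10.66, 10.63 and 10.69 on optimal food and 11.23, 11.41, 10.76 and 10.81 on malnutrition, a rise of 0.47 ± 0.11 (limma, adjusted p = 0.00328). Both ferritin chains, which store iron, rose: Fer1HCH by 0.63 ± 0.09 (adjusted p = 1.88e-06) and Fer2LCH by 0.64 ± 0.11 (6.17e-05). All 3 differences were below 0 with arrays centred on the neuron or the muscle list. Of 17 antioxidant genes 5 rose (3 without malnutrition replicate 2) and 2 fell (1 without malnutrition replicate 2 or 4 or optimal food replicate 2 or 4), with a median of 0.01 and 41.2% called. Of 71 mitochondrial ribosomal proteins 4 fell and 0 rose (0 lower without malnutrition replicate 2 and 1 without malnutrition replicate 1 or any 1 of the optimal food arrays), with a median of -0.06 and 5.63% called.

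In the autophagy and lysosome list 8 of 55 genes rose and 0 fell (median 0.08), so that 14.5% were called against 17.4% of all genes. The number that rose was 4 without malnutrition replicate 2, and 1 fell without malnutrition replicate 3. The rises included genes of the V-ATPase, the proton pump of lysosomes and synaptic vesicles: VhaAC45RP by 1.39 ± 0.19, Vha36-3 by 1.32 ± 0.23 and VhaM9.7-a by 1.2 ± 0.20. In the list of the endoplasmic reticulum and secretory pathway 6 of 39 genes fell and 0 rose (median -0.04, 15.4% called against 17.4% of all genes). The number that fell was 3 without malnutrition replicate 1 or 2 or optimal food replicate 2, and 1 rose without optimal food replicate 4. The falls included OstDelta, a subunit of the enzyme that attaches sugars to new proteins, by 0.33 ± 0.06. Srp72, of the particle that brings ribosomes to the membrane, fell by 0.35 ± 0.09. Of 41 proteasome subunits 1 fell and 0 rose (median -0.04, 2.44% called against 17.4% of all genes). The number that fell was 0 without malnutrition replicate 1, 2 or 4 or optimal food replicate 1, 2 or 4. In all, 337 called probe sets have no single gene name and are not described.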
